A study of Saccharomyces cerevisiae BY4741 with 5 samples.

Results

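The RNA cross-linked to Ssd1 was described by gene function, comparing yeast heat-shocked at 42°C with yeast grown at 30°C. The transcript table held 5090 transcripts, and 2837 that averaged 10 or more counts across the 4 Ssd1-HTP libraries were tested. Of these, 1887 belonged to 1 of 44 function lists. Of the lists, 2 hold only 8 cell wall and 6 heat shock transcripts singled out by the study, and the account below concerns the other 42 lists and the 950 tested transcripts in no list. Values are given in the order clone 3, clone 4 within each temperature throughout, and “without 30°C clone 4” means a repeat of the test in which that library was left out.

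The cells were BY4741, a MATa haploid laboratory strain of Saccharomyces cerevisiae, in which the chromosomal SSD1 gene was fused at its 3′ end to an HTP tag (histidines, a TEV protease site and protein A) followed by the 3′UTR of the Kluyveromyces lactis SSD1 gene. Ssd1-HTP 42C comprised 1 library from each of 2 independent clones, numbered 3 and 4, held for 16 min at 42°C in pre-warmed medium (SMM-Trp) and then UV cross-linked as living cells. Ssd1-HTP 30C comprised 1 library from each of the same clones in exponential growth in SMM-Trp medium at 30°C. The control was 1 library of BY4741 without the tag, also grown at 30°C, and no untagged library at 42°C was analysed here. Per the labels the 42°C cultures were collected on filters and transferred to fresh medium, whereas the 30°C cultures were cross-linked without that transfer, so the change of temperature and the transfer cannot be told apart.

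Ssd1 is a cytoplasmic RNA-binding protein related to bacterial RNase II enzymes but without their nuclease activity, known for holding mRNAs of cell wall enzymes in a repressed state. CRAC (cross-linking and analysis of cDNA) freezes the contacts of a tagged protein with RNA by UV light, purifies the protein under denaturing conditions and sequences the attached RNA fragments. Yeast moved to high temperature is known to make large amounts of chaperone mRNA under the factor Hsf1, to switch on storage carbohydrate and general stress genes under Msn2 and Msn4, and to reduce mRNAs for ribosomal proteins and ribosome assembly. A count measures the share of a library's Ssd1-linked RNA that came from a transcript, so a gain or loss of share does not separate more transcript in the cell from more Ssd1 per transcript. Poly(A) RNA-seq of matched cells was not analysed here.

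The Ssd1-HTP libraries held 111824 to 413502 counts and the untagged control 3921, and 93.8 to 96.0% of the counts of the Ssd1-HTP libraries fell on the tested transcripts. Of the genes specific to MATa cells, MFA1 and MFA2, which encode a-factor, had at least 31 and 12 counts in each Ssd1-HTP library. Of those specific to MATα cells, MF(ALPHA)2 had 0 counts and MF(ALPHA)1 at most 7, but SAG1 had 6 and 13 counts at 42°C and 8 and 5 at 30°C, and STE3 had 0 and 12 at 42°C and none at 30°C. LEU2, which is deleted in BY4741, had 0 counts in every library, and MET17, also deleted, had 1 count in all. HIS3, of which BY4741 lacks a part, had 1 and 20 counts at 42°C and 9 and 5 at 30°C. SSD1 itself had 1233 and 730.3 CPM (counts scaled to a library total of 1000000) at 42°C and 537 and 724 CPM at 30°C (log2 fold change 0.71 ± 0.47 (SE), adjusted p = 0.489). Its lower 42°C value lay just above its higher 30°C value, and it was not called. A transcript with 0 counts in the control could still have had a background of up to 765 CPM there, the level of 3 counts.

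In an edgeR quasi-likelihood test over the 2837 transcripts, 108 were higher at 42°C (3.81%) and 98 were lower (3.45%) at an adjusted p under 0.05, and 577 had an unadjusted p under 0.05. A transcript is said to be called below when it passed this threshold. The counts were 75 higher and 33 lower without 30°C clone 4, and 193 and 121 without 30°C clone 3. All 206 called transcripts moved the same way in both clones, but they were selected on these same libraries, which favours that outcome. Of all 2837 tested, 1850 moved the same way in both clones. The median log2 fold change over all tested transcripts was 0.13, and list medians below are read against it. The common biological coefficient of variation was 0.70, so only large changes passed: called increases had a mean of 1383 CPM at 42°C and 114 CPM at 30°C in the median transcript, and called decreases a mean of 102 CPM at 42°C and 854 CPM at 30°C. Leaving aside the members of those 2 lists and CLN2, the 102 remaining increases took 21.9 and 25.2% of all counts at 42°C, against 2.78 and 2.67% at 30°C. The 92 decreases took 1.46 and 1.51% at 42°C, against 10.4 and 10.4% at 30°C. Both sets were picked from the same counts, so the gap between temperatures is no separate result.

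Beyond the calls, 835 tested transcripts (29.4%) had both 42°C libraries above both 30°C libraries and 688 (24.3%) had both below, a count that needs no test and that is given for the lists below. Of the 42 function lists, 19 took a larger share of counts in both 42°C libraries than in either 30°C library, 18 took a smaller share in both, and 5 overlapped. With 2 libraries against 2, an exact permutation test of a single share cannot give a two-sided p below 0.333, so shares are reported with the values of both clones and without a test. Together the lists for protein folding, general stress, and trehalose and glycogen took 17.0 and 19.1% at 42°C and 3.64 and 3.33% at 30°C, a ratio of 5.18. The 7 lists of ribosome production and translation took 4.39 and 5.71% at 42°C and 17.1 and 16.1% at 30°C, a ratio of 0.305.

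**Figure D1:**
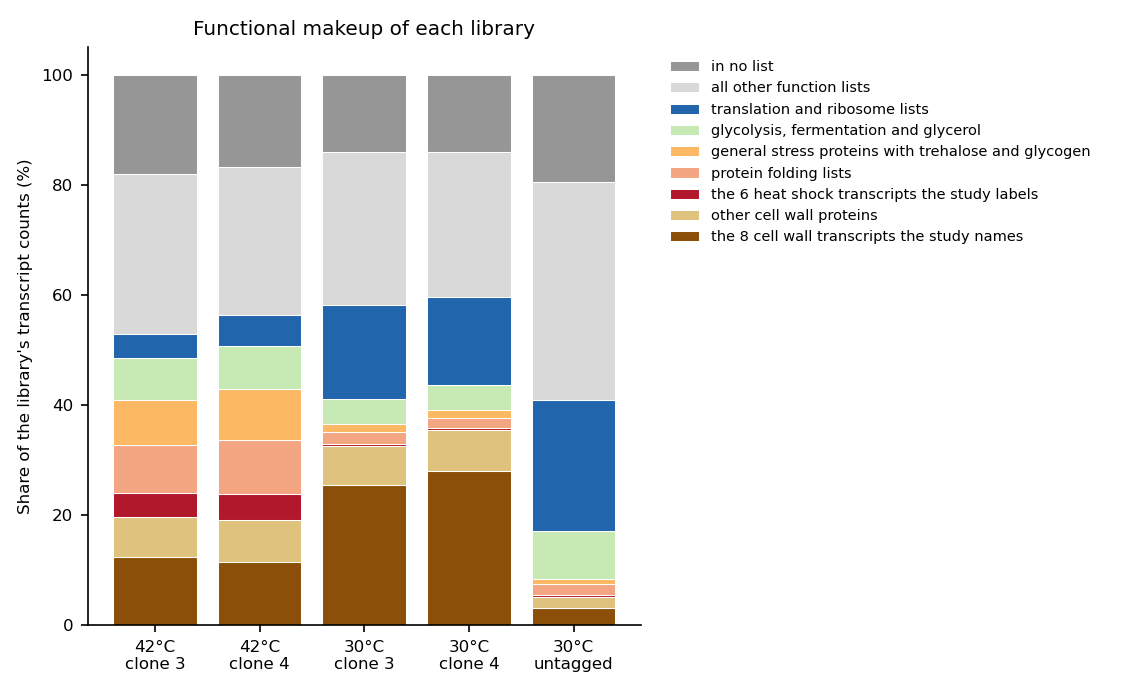
Each bar is 1 library and each colour a family of functions, with the vertical axis giving its share of that library's transcript counts in percent, and the last bar is the untagged control. Both 42°C bars hold wide bands for folding (8.78 and 9.94%) and for general stress with trehalose and glycogen (8.21 and 9.18%) that are narrow in both 30°C bars, and a thin band for translation (4.39 and 5.71%, against 17.1 and 16.1% at 30°C).

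The storage carbohydrate list showed the largest ratio of shares of the 42 lists. Trehalose is a disaccharide that yeast accumulates in heat and that stabilises proteins and membranes, and glycogen is its storage polymer of glucose. Of 21 tested members 12 rose, none fell and 9 were not called, with a median log2 fold change of 2.71, and 18 had both 42°C libraries above both 30°C libraries. The list took 2.04 and 2.50% at 42°C and 0.293 and 0.215% at 30°C, a ratio of 8.92, and the control had 0 of 3921 counts on it, which allows a share of up to 0.0765% (3 counts). The calls fell to 7 without 42°C clone 4 and 7 without 30°C clone 4.

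Enzymes on either side of glucose 1-phosphate, an intermediate of both pathways, were among the increases. PGM2, the main phosphoglucomutase, had 4889 and 8036 CPM at 42°C and 322 and 71.5 CPM at 30°C (log2 fold change 5.09 ± 0.72 (SE), adjusted p = 0.00663), and the lower 42°C value was far above the higher 30°C value. UGP1, which makes the UDP-glucose used by both pathways, had 1480.4 and 2014 CPM at 42°C and 362 and 206 CPM at 30°C (2.71 ± 0.52, adjusted p = 0.0202, and 0.101 without 30°C clone 4). Of the trehalose synthase complex, TSL1, a regulatory subunit, had 4813 and 5492 CPM at 42°C and 497 and 331 CPM at 30°C (3.72 ± 0.43, adjusted p = 0.00318). TPS1, the catalytic synthase, had 1581 and 2271 CPM at 42°C and 350.4 and 304 CPM at 30°C (2.66 ± 0.48, adjusted p = 0.0159, and 0.0826 without 30°C clone 4). The phosphatase subunit TPS2 also rose (2.12 ± 0.47, adjusted p = 0.0348, and 0.0592 without 42°C clone 4, 0.0712 without 30°C clone 3 and 0.0775 without 30°C clone 4). TPS3, the other regulatory subunit, had 110 and 138 counts at 42°C and 8 and 0 at 30°C (4.29 ± 1.06, adjusted p = 0.0482, and 0.139 without 42°C clone 3, 0.0591 without 42°C clone 4 and 0.0784 without 30°C clone 4).

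Enzymes that break these stores down rose beside those that build them. NTH1, the neutral trehalase, had 843 and 631 CPM at 42°C and 45.2 and 89.4 CPM at 30°C (log2 fold change 3.56 ± 0.63 (SE), adjusted p = 0.015). ATH1, the acid trehalase, had 50 and 76 counts at 42°C and 0 in both 30°C libraries, at least 10.9-fold higher with each 30°C library set to 3 counts (adjusted p = 0.0249, and 0.0925 without 42°C clone 3 and 0.0509 without 42°C clone 4). GDB1, the glycogen debranching enzyme, had 93 and 309 counts at 42°C and 12 and 0 at 30°C (4.18 ± 1.02, adjusted p = 0.0459, and 0.122 without 42°C clone 4 and 0.072 without 30°C clone 4). GPH1, glycogen phosphorylase, missed the threshold with 116 and 298 counts at 42°C and 3 and 15 at 30°C. Glycogen synthase GSY2 had 708 and 728 CPM at 42°C and 79.1 and 161 CPM at 30°C (2.70 ± 0.60, adjusted p = 0.0343, and 0.0843 without 42°C clone 4, 0.0629 without 30°C clone 3 and 0.066 without 30°C clone 4). GAC1 and GIP2 are regulatory subunits of the phosphatase Glc7, and both had 0 counts in the 30°C libraries. GAC1 had 74 and 238 counts at 42°C and was at least 23.1-fold higher (adjusted p = 0.00716). GIP2 had 51 and 134 and was at least 14.3-fold higher (adjusted p = 0.0151).

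The general stress list gathers stress-related genes that belong to no pathway list. It also holds regulators, among them MSN2, MSN4 and HSF1, and is not a list of the targets of any factor. Of 59 tested members 19 rose, none fell and 40 were not called, and the median log2 fold change was 2.54. Both 42°C libraries lay above both 30°C libraries for 48 of the 59, and below for 1. The list took 6.18 and 6.68% at 42°C and 1.06 and 1.17% at 30°C, against 0.893% (0.623 to 1.24%) in the control (exact binomial 95% interval).

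The most counted of these encode small proteins. SPO24 had 12474 and 16689 CPM at 42°C and 1769 and 2388 CPM at 30°C, and its interval shares 51 nt with ERV2 on the other strand. HOR7, a small membrane protein, had 5332 and 6479 CPM at 42°C and 757 and 1413 CPM at 30°C (log2 fold change 2.56 ± 0.43 (SE), adjusted p = 0.0134). HSP12, a membrane-associated protein that folds on lipid, had 5650.3 and 4149.9 CPM at 42°C and 384 and 402 CPM at 30°C (3.71 ± 0.40, adjusted p = 0.00284). All 3 had 45 or more counts in each 30°C library.

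Others of the list were sparse in the 30°C libraries. GRE3, an aldose reductase, had 3757 and 4063 CPM at 42°C and 186 and 161 CPM at 30°C (log2 fold change 4.57 ± 0.44 (SE), adjusted p = 0.00194). HSP30, a membrane protein that restrains the proton pump, had 1964 and 2749.7 CPM at 42°C and 28.3 and 188 CPM at 30°C (4.64 ± 0.79, adjusted p = 0.0145). TMA10, a ribosome-associated protein, had 1409.6 and 2667 CPM at 42°C and 73.5 and 26.8 CPM at 30°C (5.37 ± 0.70, adjusted p = 0.00482). RGI1, a protein induced in respiratory growth, had 249 and 824 counts at 42°C and 0 and 9 at 30°C (5.72 ± 1.07, adjusted p = 0.0185, and 0.0851 with DESeq2). For each of these the higher 30°C value was below the lower 42°C value. OM45, an outer mitochondrial membrane protein, had 72 and 141 counts at 42°C and none at 30°C, at least 17.5-fold higher (adjusted p = 0.0108). GRE2, a reductase, had 45 and 72 counts at 42°C and none at 30°C, at least 10.0-fold higher (adjusted p = 0.029, and 0.117 without 42°C clone 3 and 0.0683 without 42°C clone 4).

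**Figure D2:**
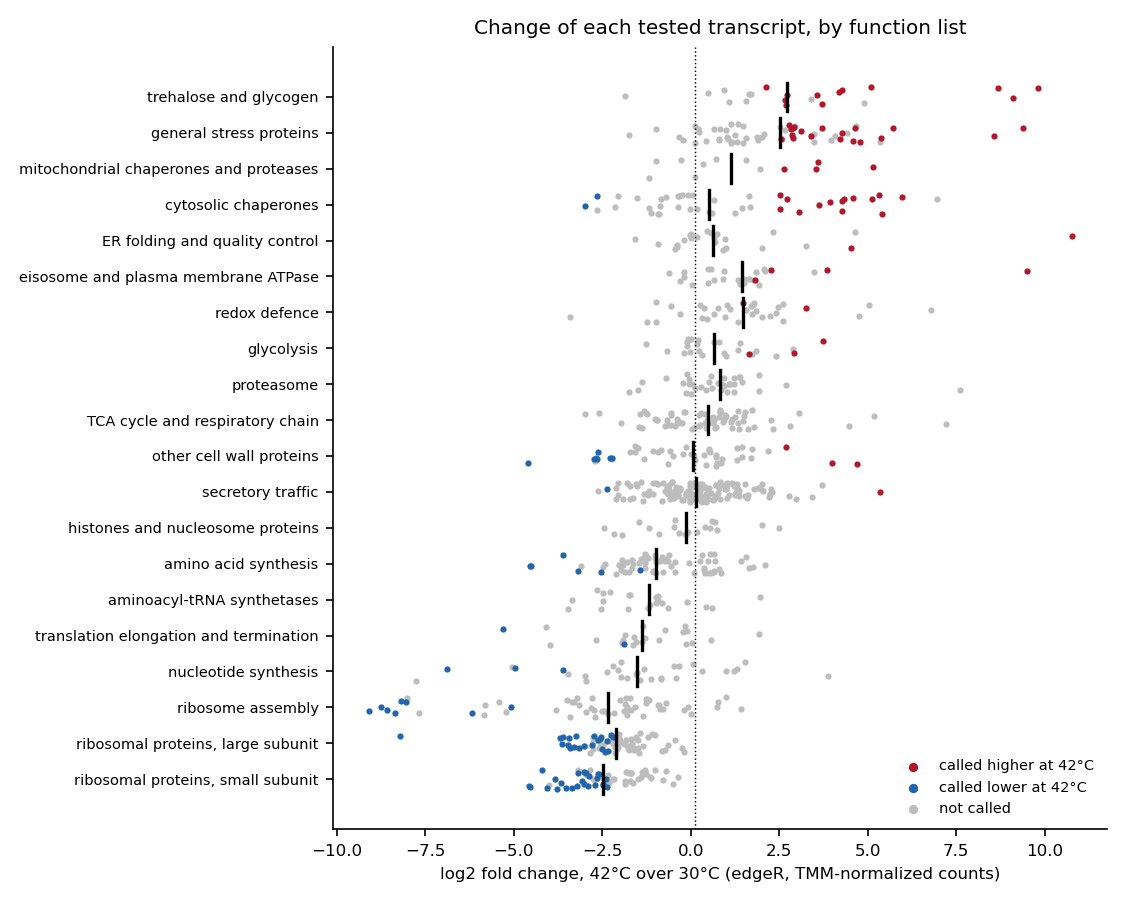
Each point is 1 tested transcript placed by its log2 fold change at 42°C over 30°C, in rows by function list, with called transcripts in red or blue, the list median as a black bar and the median of all tested transcripts as a dotted line at 0.13. The medians run from 2.71 for trehalose and glycogen to -2.49 for small-subunit ribosomal proteins, and the plotted points beyond 7 in size are transcripts with 0 counts at a temperature, whose fitted value is no bound.

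Chaperones outside the list of 6 heat shock transcripts split into those that rose, those that fell and those that were not called. Of 43 tested members of the cytosolic list 14 rose, 2 fell and 27 were not called, so that its median log2 fold change was only 0.53 while its share was 6.13 and 6.70% at 42°C and 1.48 and 1.18% at 30°C. Without 30°C clone 4 the increases numbered 8. The Hsp90 genes were the most counted increases. HSP82, the heat-inducible Hsp90 (chromosome XVI, 96407 to 98681, minus strand, sacCer3), had 14403 and 12730.3 CPM at 42°C and 785 and 393 CPM at 30°C (log2 fold change 4.59 ± 0.45 (SE), adjusted p = 0.00194). HSC82, its constitutive paralogue, had 10658 and 12726 CPM at 42°C and 1989 and 1815 CPM at 30°C (2.72 ± 0.34, adjusted p = 0.0045, and 0.0536 without 30°C clone 4).

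Some partners of Hsp90 and Hsp70 were among the 14 increases of this list. Of its 43 tested members 27 were not called, and 19 had a log2 fold change below 0. STI1, which bridges both chaperones, had 3763 and 5047 CPM at 42°C and 186 and 304 CPM at 30°C (log2 fold change 4.29 ± 0.48 (SE), adjusted p = 0.00318). CPR6, an Hsp90-bound prolyl isomerase, had 3515 and 3719 CPM at 42°C and 311 and 71.5 CPM at 30°C (4.27 ± 0.67, adjusted p = 0.0098). AHA1, the activator of the Hsp90 ATPase, had 1811 and 1519 CPM at 42°C and 249 and 169.9 CPM at 30°C (3.05 ± 0.48, adjusted p = 0.0103, and 0.0591 without 30°C clone 4). Among Hsp40 proteins, SIS1 had 2896 and 3676 CPM at 42°C and 379 and 179 CPM at 30°C (3.63 ± 0.52, adjusted p = 0.00701). YDJ1 had 1327 and 1565 CPM at 42°C and 322 and 215 CPM at 30°C (2.51 ± 0.49, adjusted p = 0.0222, and 0.11 without 30°C clone 4). The nucleotide exchange factors SSE1, SSE2 and FES1 rose as well, SSE1 with 3515 and 3915 CPM at 42°C and 588 and 796 CPM at 30°C (2.53 ± 0.40, adjusted p = 0.0106, and 0.0536 without 30°C clone 4). The log2 fold change of SSE2 was 4.34 ± 0.56, adjusted p = 0.00471. That of FES1 was 3.93 ± 0.71, adjusted p = 0.0169, and 0.06 without 30°C clone 4. In each of these genes both 42°C values lay above both 30°C values.

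Proteins that gather misfolded clients were among the larger increases. BTN2, a sorting factor that takes misfolded proteins to inclusions, had 5408 and 6251 CPM at 42°C and 136 and 53.7 CPM at 30°C (log2 fold change 5.97 ± 0.56 (SE), adjusted p = 0.00194). Its relative CUR1 had 101 and 312 counts at 42°C and 5 and 0 at 30°C (5.42 ± 0.95, adjusted p = 0.015). HSP26, a small heat shock protein, had 4494 and 5202 CPM at 42°C and 181 and 107 CPM at 30°C (5.14 ± 0.49, adjusted p = 0.00194), with 7 control counts, or 1785 CPM in that shallow library. The 2 members that fell, SSB1 and SSB2, are Hsp70 proteins bound to the ribosome that assist new chains. SSB1 had 236 and 177 CPM at 42°C and 1509 and 1207 CPM at 30°C (-2.65 ± 0.48, adjusted p = 0.0169). Its 8 control counts, or 2040 CPM, lay above its level at either temperature. SSB2 had 82.6 and 148 CPM at 42°C and 1187 and 814 CPM at 30°C (-2.97 ± 0.59, adjusted p = 0.0226).

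Folding systems inside organelles also gained. The mitochondrial list had 4 increases and no decrease among 12 tested and took 1.29 and 1.66% at 42°C and 0.381 and 0.329% at 30°C. HSP78, the matrix disaggregase, had 3498 and 4544 CPM at 42°C and 79.1 and 169.9 CPM at 30°C (log2 fold change 5.15 ± 0.54 (SE), adjusted p = 0.00284). HSP60, the chaperonin, had 3203 and 4433 CPM at 42°C and 752 and 572 CPM at 30°C (2.63 ± 0.43, adjusted p = 0.0121, and 0.079 without 30°C clone 4). HSP10, the lid of that chaperonin, had 1409.6 and 1548 CPM at 42°C and 141 and 116 CPM at 30°C (3.60 ± 0.50, adjusted p = 0.00634), but its 28 control counts, or 7141 CPM, lay above its level at either temperature. MDJ1, the matrix Hsp40, rose too (3.55 ± 0.77, adjusted p = 0.0318, and 0.0912 without 42°C clone 4 and 0.0916 without 30°C clone 4). The list had 2 increases without 30°C clone 4.

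In the endoplasmic reticulum list 2 of 24 tested members rose (8.33%, beside 3.81% of all tested transcripts) and none fell. The share was 1.36 and 1.59% at 42°C and 0.416 and 0.435% at 30°C. KAR2, the lumenal Hsp70, had 7868 and 10149.9 CPM at 42°C and 237 and 608 CPM at 30°C (log2 fold change 4.54 ± 0.53 (SE), adjusted p = 0.0032). ERO1, the oxidase that drives disulphide formation, had 156 and 438 counts at 42°C and none in the 30°C or control libraries, at least 45.2-fold higher (adjusted p = 0.00318), the highest such bound among all called transcripts. Its interval shares 100 nt with YML131W on the other strand, which had 7 and 3 counts at 42°C and none at 30°C. The KAR2 and ERO1 calls held under all 10 alternatives.

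**Figure D3:**
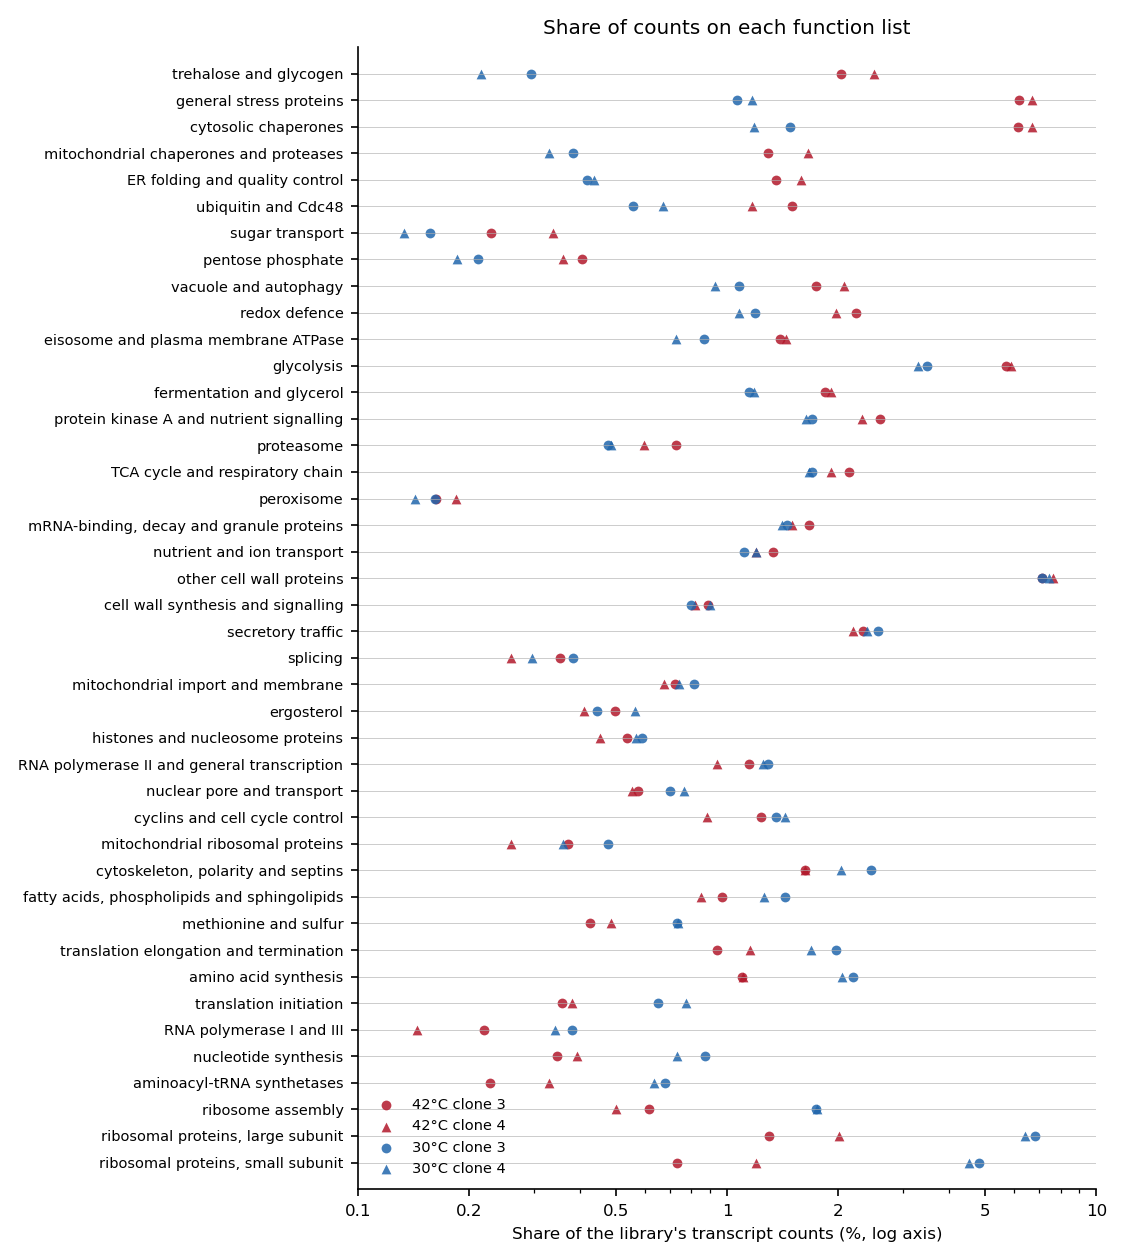
Each row is 1 of the 42 function lists and each symbol 1 library, placed on a log axis by the list's share of that library's counts in percent, with 42°C in red and 30°C in blue. Rows are ordered by the ratio of mean shares, from 8.92 for trehalose and glycogen at the top to 0.21 for small-subunit ribosomal proteins at the bottom; at both ends the temperatures do not overlap.

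In protein degradation the calls were few. The ubiquitin list had 3 increases among 48 tested members (6.25%, beside 3.81% of all tested transcripts). Its share was 1.50 and 1.17% at 42°C and 0.554 and 0.672% at 30°C. UBI4, the polyubiquitin gene, had 3834 and 2815 CPM at 42°C and 90.4 and 179 CPM at 30°C (log2 fold change 4.73 ± 0.51 (SE), adjusted p = 0.00284). UBC4, a conjugating enzyme, had 1445 and 1779.9 CPM at 42°C and 113 and 259 CPM at 30°C (3.25 ± 0.56, adjusted p = 0.0148). Its near-identical paralogue UBC5 had 17.7 and 104 CPM at 42°C and 96.1 and 152 CPM at 30°C (-0.82 ± 1.16, adjusted p = 0.809). The proteasome list had no call among 36 tested members, with a median log2 fold change of 0.82, both 42°C libraries above both 30°C libraries for 14, and a share of 0.727 and 0.596% at 42°C and 0.474 and 0.486% at 30°C. GRR1, an F-box protein, had 54 and 31 counts at 42°C and none at 30°C, at least 8.99-fold higher (adjusted p = 0.0497, and 0.762 without 42°C clone 3 and 0.0826 without 30°C clone 4).

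In glycolysis 2 of the 3 increases were at the first step, the phosphorylation of glucose. Of 25 tested members 3 rose, and the list took 5.70 and 5.86% at 42°C and 3.48 and 3.28% at 30°C, beside 6.27% (5.53 to 7.08%) in the control. HXK1, a hexokinase, had 3763 and 3712 CPM at 42°C and 396 and 188 CPM at 30°C (log2 fold change 3.74 ± 0.50 (SE), adjusted p = 0.00534), and glucokinase GLK1 had 3639 and 2716 CPM at 42°C and 469 and 420.3 CPM at 30°C (2.91 ± 0.41, adjusted p = 0.00634). The third increase, TDH3, had the most counts of the list, 17216 and 20104 CPM at 42°C and 6651 and 6126 CPM at 30°C, and its 44 control counts, or 11222 CPM, lay between the temperatures (1.64 ± 0.30, adjusted p = 0.0182, and 0.174 without 30°C clone 4). Hexose transporters HXT5 (3.66 ± 0.76, adjusted p = 0.0278, and 0.0555 without 42°C clone 3, 0.0608 without 42°C clone 4 and 0.079 without 30°C clone 4) and HXT2 (3.02 ± 0.68, adjusted p = 0.036, and 0.198 without 42°C clone 4 and 0.137 without 30°C clone 4) rose. ALD3, an aldehyde dehydrogenase, had 230 and 328 counts at 42°C and 18 and 9 at 30°C (3.60 ± 0.56, adjusted p = 0.0098, and 0.0503 without 30°C clone 4). Its paralogue ALD2 had 53 and 95 at 42°C and none in the 30°C libraries, at least 12.4-fold higher (adjusted p = 0.0202). The tricarboxylic acid cycle and respiratory chain list had no call among 71 members and a median of 0.50.

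The eisosome list, which covers the membrane furrows below the cell wall, had 4 increases among 26 tested members and none lower. These were 15.4% of its tested members, beside 3.81% of all tested transcripts. Both 42°C libraries lay above both 30°C libraries for 18 of the 26. YNL194C, an eisosome-associated protein, had 75 and 159 counts at 42°C and none at 30°C, at least 18.9-fold higher (adjusted p = 0.0098). LSP1, a core eisosome protein, had 985 and 1011 CPM at 42°C and 271 and 161 CPM at 30°C (2.28 ± 0.52, adjusted p = 0.0373, and 0.0808 without 42°C clone 4 and 0.16 without 30°C clone 4) but 15 control counts, or 3826 CPM, above all of these. The list had 1 increase without 30°C clone 4 and 1 without 42°C clone 4. The vacuole and autophagy list had 3 increases of 61 (4.92%, beside 3.81% of all tested transcripts), among them PRB1, vacuolar proteinase B, with 1445 and 1432 CPM at 42°C and 316 and 169.9 CPM at 30°C (2.63 ± 0.51, adjusted p = 0.0221, and 0.103 without 30°C clone 4), and its inhibitor PBI2 (2.73 ± 0.56, adjusted p = 0.0249, and 0.0645 without 42°C clone 4 and 0.0699 without 30°C clone 4). The list had 0 increases without 30°C clone 4 and 5 without 30°C clone 3. The redox list had 2 increases of 33 and no decrease, and 1 increase without 30°C clone 4. The increases made up 6.06% of the tested redox members, beside 3.81% of all tested transcripts. CTT1, cytosolic catalase, had 1049.8 and 999 CPM at 42°C and 56.5 and 179 CPM at 30°C (3.26 ± 0.64, adjusted p = 0.0223). AHP1, a peroxiredoxin, had 3580.1 and 3262 CPM at 42°C and 1413 and 1180.4 CPM at 30°C (1.48 ± 0.37, adjusted p = 0.0497, and 0.0646 without 30°C clone 3 and 0.231 without 30°C clone 4).

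Transcripts for the ribosome took smaller shares at 42°C. Of 137 tested ribosomal protein transcripts none rose, 22 of 80 for the large subunit and 25 of 57 for the small subunit fell, and 129 of the 137 had both 42°C libraries below both 30°C libraries. Every fitted log2 fold change was below 0, with medians of -2.11 and -2.49. The 2 lists together took 2.03 and 3.21% at 42°C and 11.6 and 10.9% at 30°C. In the untagged control they took 18.4% (17.2 to 19.7%), above both temperatures, and the part of background RNA in the difference was not tested.

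The number of decreases called in these lists moved with the fit. With the clones as a replicate block the large-subunit calls numbered 37 and the small-subunit calls 34, and with DESeq2 they numbered 40 and 36. Without 30°C clone 4, the shallowest of the 4, they numbered 5 and 8, and without 42°C clone 3 they numbered 14 and 16. Most yeast ribosomal proteins have near-identical gene copies, between which short reads can be split.

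Single ribosomal protein transcripts showed the same separation of the temperatures. RPS6A had 53.1 and 145 CPM at 42°C and 1882 and 1887 CPM at 30°C (log2 fold change -4.05 ± 0.62 (SE), adjusted p = 0.00936), and its lower 30°C value was more than the sum of its 42°C values. RPL3, a single-copy gene and so free of that uncertainty, had 0 control counts and 218 and 365 CPM at 42°C and 1707 and 1520.2 CPM at 30°C (-2.34 ± 0.50, adjusted p = 0.0315, and 0.0526 without 42°C clone 3 and 0.0791 without 30°C clone 4). RPL2B had 401 and 757 CPM at 42°C and 3854 and 4856 CPM at 30°C (-2.78 ± 0.48, adjusted p = 0.0147, and 0.06 without 30°C clone 4). RPL13B had 189 and 140.3 CPM at 42°C and 1859 and 912 CPM at 30°C (-3.01 ± 0.56, adjusted p = 0.0182). RPS31, which encodes a ribosomal protein fused to ubiquitin, had 336 and 382 CPM at 42°C and 2215 and 1744 CPM at 30°C (-2.36 ± 0.45, adjusted p = 0.0192, and 0.0527 without 30°C clone 4), whereas the polyubiquitin gene UBI4 rose.

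Among factors that build ribosomes, 6 of the 8 called decreases had 0 counts at 42°C. The assembly list had 8 decreases and no increase among 57 tested members, a median of -2.32, and 43 members with both 42°C libraries below both 30°C libraries, and took 0.616 and 0.501% at 42°C and 1.74 and 1.76% at 30°C. The decreases made up 14.0% of its tested members, beside 3.45% of all tested transcripts. They numbered 3 without 42°C clone 4 and 2 without 30°C clone 4. The list's control share was 2.27% (1.83 to 2.79%), above both temperatures, and the part of background RNA in the difference was not tested. NHP2, a core protein of H/ACA snoRNPs, had 0 counts in both 42°C libraries and 58 and 21 at 30°C, at least 20.7-fold lower (adjusted p = 0.0195). MAK21, a pre-60S factor, had 0 at 42°C and 37 and 52 counts at 30°C, at least 27.0-fold lower (adjusted p = 0.0148, and 0.0742 without 30°C clone 4). The other 4, with 0 at 42°C in each, lost the call in at least 1 alternative. NOP56, a core protein of C/D snoRNPs, had counts of 38 and 28 at 30°C and was at least 18.6-fold lower (adjusted p = 0.0217, and 0.0706 without 30°C clone 4). The RNA helicase DBP2 had 55 and 9 at 30°C and was at least 15.7-fold lower (adjusted p = 0.0377, and 0.0767 without 42°C clone 4). RRP12, a factor of ribosome export, had 28 and 22 at 30°C and was at least 14.2-fold lower (adjusted p = 0.0363, and 0.0696 without 42°C clone 4). CBF5, the pseudouridine synthase of H/ACA snoRNPs, had 31 and 16 at 30°C and was at least 12.8-fold lower (adjusted p = 0.0495, and 0.0645 without 42°C clone 3, 0.0896 without 42°C clone 4 and 0.0982 without 30°C clone 4). MRT4, counted here among mRNA turnover proteins but known for assembling the ribosomal stalk, had 0 at 42°C and 34 and 38 counts at 30°C, at least 21.3-fold lower (adjusted p = 0.0189, and 0.0815 without 30°C clone 4).

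Translation factors lost share with smaller counts of calls. Initiation factors fell at TIF3, the yeast eIF4B, with 1 and 2 counts at 42°C and 87 and 61 at 30°C, a CPM ratio of 0.0100 with a 95% counting interval of 0.00205 to 0.0299 (adjusted p = 0.00488). TIF5, the yeast eIF5, fell with 0 and 2 counts at 42°C and 32 and 29 at 30°C, a CPM ratio of 0.0162 with a 95% counting interval of 0.00192 to 0.0612 (adjusted p = 0.0373, and 0.091 without 42°C clone 3, 0.0505 without 42°C clone 4 and 0.137 without 30°C clone 4). Elongation factor YEF3, found only in fungi, had 442 and 721 CPM at 42°C and 2413 and 2271 CPM at 30°C (-1.89 ± 0.46, adjusted p = 0.0449, and 0.0776 without 42°C clone 3 and 0.129 without 30°C clone 4). DYS1, which starts the hypusine modification of eIF5A, had 0 and 5 counts at 42°C and 32 and 59 at 30°C (-5.30 ± 1.21, adjusted p = 0.0369, and 0.0642 without 42°C clone 3 and 0.214 without 30°C clone 4). The initiation list had 2 decreases of 27 (7.41%, median -1.01) and the elongation list 2 of 23 (8.70%, median -1.38), beside 3.45% of all tested transcripts. Each list had 5 with the clones as a replicate block. Of the calls of TIF3, TIF5, YEF3 and DYS1 only that of TIF3 held in every fit that tested it. The elongation list had 0 decreases without 42°C clone 3 and 5 without 42°C clone 4. Aminoacyl-tRNA synthetases had no call among 22 tested, with a median of -1.17 and 14 members with both 42°C libraries below both 30°C libraries.

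The lists for amino acid and nucleotide synthesis held decreases and no increase. Amino acid synthesis had 6 decreases (8.96%, beside 3.45% of all tested transcripts) and no increase among 67 tested members, with a median of -0.99. Its share was 1.09 and 1.11% at 42°C and 2.20 and 2.04% at 30°C, beside 2.88% (2.38 to 3.45%) in the control. ILV5, of branched-chain synthesis, had 142 and 77.4 CPM at 42°C and 1187 and 858 CPM at 30°C (log2 fold change -3.18 ± 0.56 (SE), adjusted p = 0.015). Its pathway partner ILV6 had 142 and 169 CPM at 42°C and 718 and 1234 CPM at 30°C (-2.53 ± 0.55, adjusted p = 0.0317, and 0.0668 without 42°C clone 3 and 0.137 without 30°C clone 4). HIS4, of histidine synthesis, had 29.5 and 45.9 CPM at 42°C and 605 and 420.3 CPM at 30°C (-3.60 ± 0.71, adjusted p = 0.0222, and 0.0579 without 42°C clone 3). GCN4, the transcription activator of this pathway, had 1610.2 and 1582 CPM at 42°C and 4978 and 4185 CPM at 30°C (-1.43 ± 0.36, adjusted p = 0.0497, and 0.094 without 30°C clone 3, 0.143 without 30°C clone 4 and 0.0571 with a mean count minimum of 1), and was the most counted decrease of the list. The list had 3 decreases without 30°C clone 4 and 2 without 42°C clone 3. In the untagged control ILV6 had 6 counts, or 1530 CPM, and HIS4 had 5, or 1275 CPM, above their levels at either temperature. GCN4 had 13 control counts, or 3315 CPM, between the temperatures. Nucleotide synthesis had 3 decreases of 31 (9.68%, beside 3.45% of all tested transcripts). Its share was 0.346 and 0.392% at 42°C and 0.869 and 0.731% at 30°C, beside 0.944% (0.665 to 1.30%) in the control. IMD4, of guanine nucleotide synthesis, had 0 and 12 counts at 42°C and 123 and 62 at 30°C (-4.97 ± 1.01, adjusted p = 0.0249). The list had 1 decrease without 30°C clone 4.

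**Figure D4:**
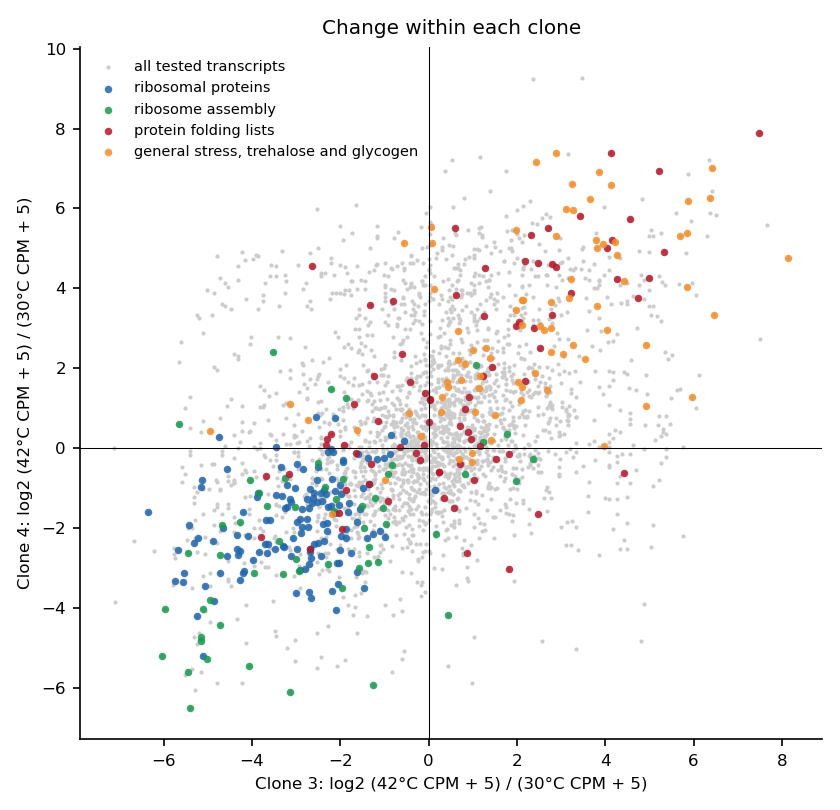
Each point is 1 tested transcript, with the log2 ratio of 42°C over 30°C (5 CPM added to both) in clone 3 on the horizontal and in clone 4 on the vertical axis, and 4 groups of lists in colour. Ribosomal proteins and ribosome assembly factors lie mostly at the lower left and general stress, trehalose and glycogen transcripts in the upper right, while the folding lists spread over both, and 1850 of the 2837 points have the same sign in both clones.

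Cell wall proteins outside the list of 8 took like shares at both temperatures while single members moved both ways. The list took 7.13 and 7.64% at 42°C and 7.14 and 7.46% at 30°C. Of 46 tested members 3 rose (6.52%, beside 3.81% of all tested transcripts) and 7 fell (15.2%, beside 3.45%), with a median of 0.06. The increases were TIP1, a mannoprotein induced by temperature shock, with 1940.4 and 3154 CPM at 42°C and 130.0 and 224 CPM at 30°C (log2 fold change 3.98 ± 0.54 (SE), adjusted p = 0.00593), SPI1 and YGP1. SPI1, a stress-induced wall protein, had 372 and 1139 counts at 42°C and 33 and 0 at 30°C (4.70 ± 1.05, adjusted p = 0.0348, and 0.228 with DESeq2). YGP1, a secreted glycoprotein, also rose (2.71 ± 0.53, adjusted p = 0.0217, and 0.0619 without 42°C clone 4 and 0.103 without 30°C clone 4). The decreases were EXG1 (adjusted p = 0.029, and 0.0603 without 42°C clone 4 and 0.096 without 30°C clone 4), MSB2 (adjusted p = 0.012, and 0.0503 without 30°C clone 4), PRY2 (adjusted p = 0.0324, and 0.103 without 30°C clone 4) and the 4 that follow. SCW10, a glucanase-like wall protein, had 88.5 and 50.8 CPM at 42°C and 1611 and 1869 CPM at 30°C (-4.60 ± 0.53, adjusted p = 0.00318). GAS1, a glucan-elongating enzyme, had 82.6 and 167 CPM at 42°C and 944 and 903 CPM at 30°C (-2.73 ± 0.59, adjusted p = 0.0317, and 0.0645 without 42°C clone 3 and 0.079 without 30°C clone 4). TOS1, which the study also mentions, had 1144 and 1296 CPM at 42°C and 5611 and 7065 CPM at 30°C (-2.27 ± 0.36, adjusted p = 0.0108, and 0.0699 without 30°C clone 4). AMN1, a daughter-cell regulator of mitotic exit rather than a wall protein, had 1445 and 675 CPM at 42°C and 6928 and 6429.8 CPM at 30°C (-2.61 ± 0.42, adjusted p = 0.0108). Without 30°C clone 4 the list had 2 increases and 2 decreases, and without 42°C clone 3 it had 6 and 6.

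The cytoskeleton, polarity and septin list had 2 decreases of 80 tested members (2.50%) and the cyclin and cell cycle list 2 of 56 (3.57%, CLN2 included), beside 3.45% of all tested transcripts, and neither had an increase. Without 42°C clone 3 the cyclin list had 1 decrease, as it did without 42°C clone 4, and without 30°C clone 4 the cytoskeleton list had 1. BUD9, a gene of bud site selection, had 348 and 394 CPM at 42°C and 4300.4 and 2879.5 CPM at 30°C (log2 fold change -3.18 ± 0.44 (SE), adjusted p = 0.00634), and the higher 42°C value was far below the lower 30°C value. HSL1, a kinase of the bud neck, had 413 and 578 CPM at 42°C and 2639 and 1949 CPM at 30°C (-2.10 ± 0.45, adjusted p = 0.0317, and 0.0723 without 30°C clone 4). CLB1, a mitotic cyclin, had 0 and 1 counts at 42°C and 33 and 26 at 30°C, a CPM ratio of 0.00839 with a 95% counting interval of 0.000209 to 0.0486 (adjusted p = 0.0304, and 0.0669 without 42°C clone 3, 0.0535 without 42°C clone 4 and 0.103 without 30°C clone 4). TOS2, a bud neck protein in no list, had 1 and 6 counts at 42°C and 58 and 21 at 30°C (-4.37 ± 1.06, adjusted p = 0.0455, and 0.149 without 42°C clone 3, 0.0717 without 42°C clone 4 and 0.0527 without 30°C clone 4). Of the a-factor genes, MFA2 had 70.8 and 94.3 CPM at 42°C and 893 and 644 CPM at 30°C (-3.09 ± 0.59, adjusted p = 0.0202). MFA1 had 201 and 75.0 CPM at 42°C and 627 and 1171 CPM at 30°C (-2.68 ± 0.64, adjusted p = 0.0436, and 0.0988 without 42°C clone 4 and 0.168 without 30°C clone 4). STE6, which exports a-factor, had 0 counts at 42°C and 31 and 28 at 30°C, at least 17.1-fold lower (adjusted p = 0.0257, and 0.0535 without 42°C clone 4 and 0.0982 without 30°C clone 4). The other a-specific genes examined were not called, STE2 (counts of 6 and 24 at 42°C against 52 and 50 at 30°C) and BAR1 (0 and 6 at 42°C against 47 and 16 at 30°C).

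The nutrient signalling list held increases as well as the decreases of its mating genes. IRA2, which restrains Ras, had 5332 and 6636 CPM at 42°C and 469 and 339.8 CPM at 30°C (log2 fold change 3.98 ± 0.43 (SE), adjusted p = 0.00284), a call kept in all 10 alternatives. KSP1, a kinase that limits autophagy, had 1822 and 926 CPM at 42°C and 192 and 286 CPM at 30°C (2.59 ± 0.52, adjusted p = 0.0248, and 0.0605 without 42°C clone 3 and 0.0746 without 30°C clone 4). The list as a whole had 3 increases and 3 decreases among 92 tested members (3.26% each), beside 3.81 and 3.45% of all tested transcripts. It had 1 increase without 42°C clone 3, 7 increases without 30°C clone 3, and 1 decrease without 30°C clone 4.

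Isozymes and paralogues were set against each other to see which copy of a function changed. Of 52 pairs listed, 19 had at least 1 called member, and the ratio of counts within a library is compared only between temperatures, since it depends on transcript length. The HSP82 to HSC82 ratio was 1.35 and 1.00 at 42°C and 0.395 and 0.217 at 30°C, and the SSE2 to SSE1 ratio 0.477 and 0.283 at 42°C and 0.0962 and 0.112 at 30°C, so the inducible copy gained on the constitutive copy in both clones although both copies rose. The HXK1 to HXK2 ratio was 5.32 and 7.91 at 42°C and 0.753 and 0.339 at 30°C, and HXK2, the glucose-phase hexokinase, was not called (0.19 ± 0.48, adjusted p = 0.897). SOL4 and SOL3, sugar lactonases of the pentose phosphate pathway, changed order. SOL4 had 72 and 300 counts at 42°C and 0 and 1 at 30°C, a CPM ratio of 184 with a 95% counting interval of 32.9 to 7297 (adjusted p = 0.00902). SOL3 had 6 and 28 at 42°C and 26 and 4 at 30°C (-0.71 ± 1.32, adjusted p = 0.858). For PGM2 and PGM1 the counts of PGM1 were 0 and 18 at 42°C and 27 and 4 at 30°C, against 829 and 3323 at 42°C and 57 and 8 at 30°C for PGM2. The GSY2 to GSY1 ratio was 17.1 and 6.14 at 42°C and 1.40 and 2.25 at 30°C.

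Other pairs changed in different ways. SSB2 and SSB1 fell together. The TDH2 to TDH3 ratio was 0.197 and 0.182 at 42°C and 0.286 and 0.328 at 30°C, with TDH2 not called (0.94 ± 0.36, adjusted p = 0.18). RNR1, the large subunit of ribonucleotide reductase, had 10 and 11 counts at 42°C and 53 and 87 at 30°C (-3.61 ± 0.79, adjusted p = 0.0324, and 0.0872 without 42°C clone 4 and 0.156 without 30°C clone 4), while RNR3, its damage-induced form, had 7 and 32 at 42°C and 0 and 1 at 30°C (adjusted p = 0.483). The 15 control counts of RNR1, or 3826 CPM, lay above its level at either temperature. The LSP1 to PIL1 ratio was 1.04 and 0.986 at 42°C and 0.706 and 0.220 at 30°C. In each of these pairs the 2 copies share sequence to a degree that was not analysed here, so reads may be split between them.

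**Figure D5:**
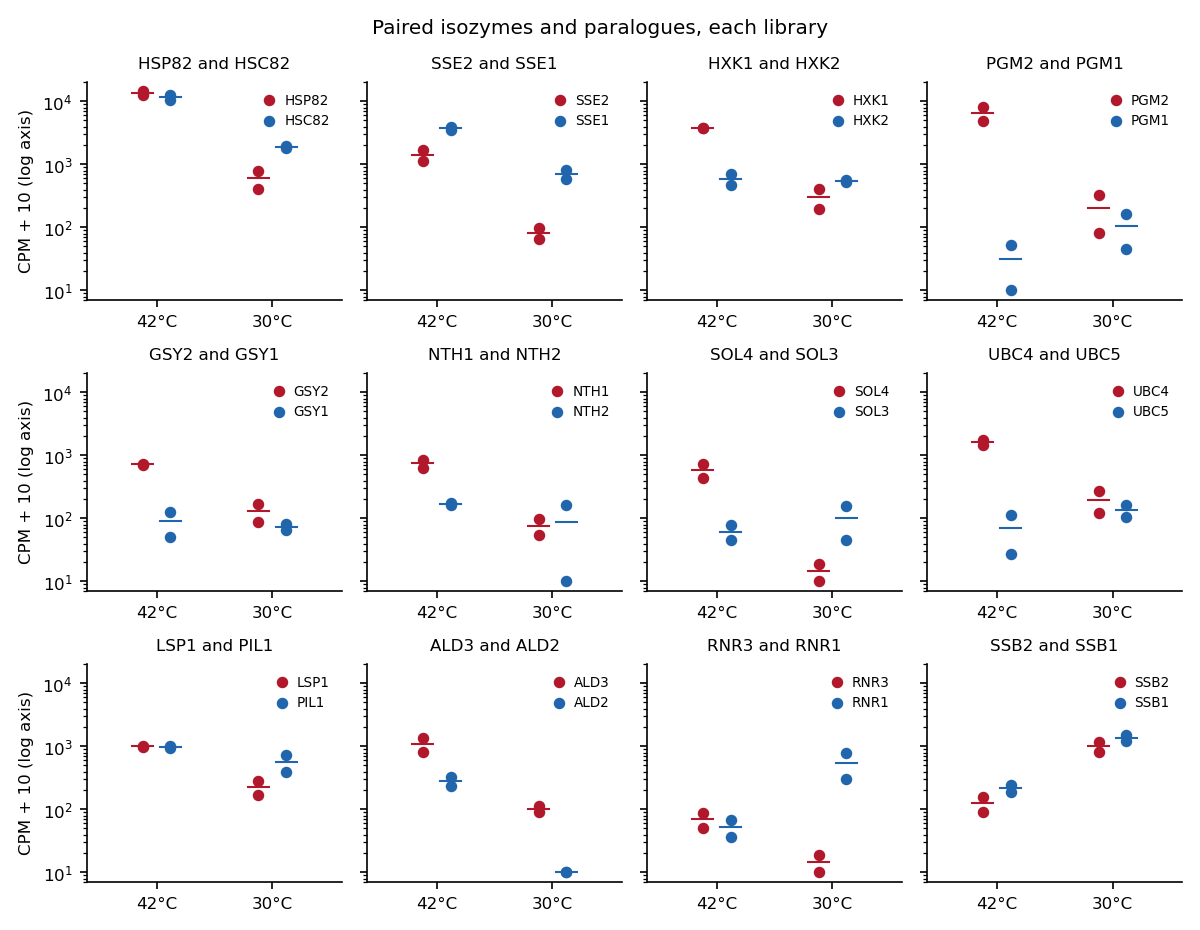
Each panel sets the members of a pair side by side, with 1 point per library, a bar at the mean of the 2 clones and a vertical log axis in CPM with 10 added. HSP82, HXK1, PGM2 and SOL4 (red) sit well above their 30°C points at 42°C while HXK2, PGM1 and SOL3 (blue) do not, and SSB2 and SSB1 are both lower at 42°C.

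The 950 tested transcripts in no list took 18.0 and 16.7% at 42°C and 14.1 and 14.1% at 30°C, with a median of 0.38. They had 20 increases (2.11%, beside 3.81% of all tested transcripts) and 3 decreases (0.316%, beside 3.45%). The most counted of the increases included factors of translation fidelity, nucleotide breakdown and lifespan. ECL1, an extender of chronological lifespan, had 2165 and 4452 CPM at 42°C and 288 and 206 CPM at 30°C (log2 fold change 3.85 ± 0.56 (SE), adjusted p = 0.00701). APA1, which degrades diadenosine tetraphosphate, had 3315 and 4087 CPM at 42°C and 413 and 706 CPM at 30°C (2.84 ± 0.45, adjusted p = 0.0103). MBF1, a coactivator that guards reading frame at stalled ribosomes, had 1958 and 2152 CPM at 42°C and 243 and 188 CPM at 30°C (3.34 ± 0.47, adjusted p = 0.00634). ZPR1, a zinc finger protein that helps fold elongation factor eEF1A, had 1911 and 3279 CPM at 42°C and 203 and 17.9 CPM at 30°C (4.57 ± 0.87, adjusted p = 0.0202) and 6 control counts, or 1530.2 CPM. PIN3, a prion-like protein, had 2129 and 1884 CPM at 42°C and 96.1 and 169.9 CPM at 30°C (4.02 ± 0.51, adjusted p = 0.0045), and YBR085C-A, of unknown function (chromosome II, 418534 to 419193, minus strand), had 2170.5 and 2358 CPM at 42°C and 175 and 197 CPM at 30°C (3.70 ± 0.46, adjusted p = 0.00425). SIP4, an activator of gluconeogenic genes, had 66 and 175 counts at 42°C and 1 and 5 at 30°C (4.22 ± 0.96, adjusted p = 0.0363, and 0.0526 without 42°C clone 3 and 0.0988 without 42°C clone 4). The increases in no list numbered 35 with the clones as a replicate block, 52 without 30°C clone 3 and 10 without 42°C clone 4.

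Of the 108 increases 17 had 0 in both 30°C libraries, and of the 98 decreases 12 had 0 in both 42°C libraries, so their folds are bounds set by the depth. In no list, YKL091C had 69 and 72 counts at 42°C and was at least 13.3-fold higher (adjusted p = 0.0217, and 0.117 without 42°C clone 3). ITC1, a chromatin remodelling subunit, had 49 and 53 and was at least 9.53-fold higher (adjusted p = 0.0349, and 0.359 without 42°C clone 3, 0.0553 without 42°C clone 4 and 0.0591 without 30°C clone 4). CTL1, an RNA triphosphatase, had 33 and 77 and was at least 8.70-fold higher (adjusted p = 0.0348, and 0.0869 without 42°C clone 3, 0.168 without 42°C clone 4 and 0.0536 without 30°C clone 4). Each of these calls was lost in at least 1 alternative. GSP2, a Ran GTPase of the nuclear transport list, had 42 and 108 and was at least 11.6-fold higher (adjusted p = 0.0217, and 0.0843 without 42°C clone 4). IRC15, a microtubule-associated protein, had 28 and 81 and was at least 8.25-fold higher (adjusted p = 0.0373, and 0.0696 without 42°C clone 3 and 0.0591 without 30°C clone 4). It shares 1314 nt with CTF19 on the other strand, and CTF19 had 0 counts in every library.

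In the other direction, RPC40, a subunit of RNA polymerases I and III, had 0 at 42°C and 24 and 34 counts at 30°C, at least 17.6-fold lower (adjusted p = 0.0279, and 0.0579 without 42°C clone 4). AQR1, a plasma membrane exporter, had 0 at 42°C and 16 and 34 at 30°C, at least 15.8-fold lower (adjusted p = 0.0373, and 0.0753 without 42°C clone 4). TRM7, a tRNA methyltransferase, had 0 at 42°C and 35 and 15 at 30°C, at least 13.3-fold lower (adjusted p = 0.0441, and 0.0579 without 42°C clone 3, 0.0806 without 42°C clone 4 and 0.0781 without 30°C clone 4). RPL22B, a paralogue of RPL22A that was also called, had 0 at 42°C and 30 and 21 at 30°C, at least 14.3-fold lower (adjusted p = 0.0357, and 0.068 without 42°C clone 4 and 0.103 without 30°C clone 4). FUR1, of pyrimidine salvage, had 0 and 1 at 42°C and 36 and 41 at 30°C, a CPM ratio of 0.00643 with a 95% counting interval of 0.000161 to 0.0369 (adjusted p = 0.0182, and 0.0884 without 30°C clone 4).

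Among the most counted transcripts in no list, several were not called. MMR1, which moves mitochondria to the bud, had 1817 and 1132 CPM at 42°C and 1712 and 1645 CPM at 30°C (log2 fold change -0.12 ± 0.40 (SE), adjusted p = 0.925). LRE1, which counters the kinase Cbk1 in wall integrity, had 1445 and 1495 CPM at 42°C and 718 and 1315 CPM at 30°C (0.64 ± 0.45, adjusted p = 0.529). HLR1, its paralogue, had 926 and 1231 CPM at 42°C and 1486 and 1628 CPM at 30°C (-0.42 ± 0.42, adjusted p = 0.688). An adjusted p above 0.05 with this spread does not show equal values. Lists of housekeeping functions with no call in either direction included RNA polymerase II and general transcription (77 tested, median -0.27), histones (20, -0.14), ergosterol (33, 0.22), mitochondrial import (60, 0.11) and cell wall synthesis and signalling (47, -0.10). Some still took a smaller share in both 42°C libraries. The RNA polymerase II list took 1.15 and 0.938% at 42°C and 1.29 and 1.25% at 30°C. Histones took 0.534 and 0.452% against 0.587 and 0.568%, and mitochondrial import 0.724 and 0.674% against 0.812 and 0.740%. The shares of the ergosterol and the cell wall synthesis lists overlapped between temperatures. Secretory traffic, the largest list with 140 tested members, had 1 increase, GGA1 (44 and 121 counts at 42°C and 2 and 0 at 30°C, a CPM ratio of 40.9 with a 95% counting interval of 11.1 to 340.2), and 1 decrease, PSA1, which makes GDP-mannose for glycosylation and had 708 and 515 CPM at 42°C and 4029 and 2539.7 CPM at 30°C (-2.36 ± 0.43, adjusted p = 0.0177). The 17 control counts of PSA1, or 4336 CPM, lay above its level at either temperature. The increase and the decrease were each 0.714% of the tested secretory members, beside 3.81 and 3.45% of all tested transcripts. In lipid synthesis FAS1, a subunit of fatty acid synthase, had 584 and 578 CPM at 42°C and 3261 and 2155 CPM at 30°C (-2.13 ± 0.43, adjusted p = 0.0234).

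Background counts and overlapping intervals were tallied over all calls. Of the 108 increases 13 had counts in the untagged library, against 51 of the 98 decreases and 464 of all 2837 tested transcripts. That library was grown at 30°C, where the median called increase had a mean of 114 CPM and the median called decrease 854 CPM. Of the called transcripts, 29 increases and 18 decreases lay on intervals that overlap another transcript of the table, as did 863 of the 2837 tested. The use of strand in the counting is not stated. The longest overlaps after IRC15 among transcripts described above were MBF1 with MUM3 (165 nt), HSL1 with YPF1 (159 nt) and CTL1 with SPT21 (153 nt), all on the other strand. The median length was 1553 nt for increases and 1224 nt for decreases, against 1679 nt for all tested transcripts.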

How the data were processed

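The RNA was measured by CRAC in 2 Ssd1-HTP libraries at 42°C, 2 at 30°C and 1 untagged library at 30°C. Per the methods, the authors trimmed and demultiplexed the reads with Flexbar, collapsed PCR duplicates that shared insert and random barcode, aligned them with Novoalign (genome build sacCer3 in the submitters' processing notes) and counted reads over transcript intervals with bedtools. The deposited values are these whole-number counts, not normalized, and collapsing leaves them close to molecules. Transcripts averaging 10 or more counts over the 4 libraries were fitted in R 4.3.3 by the quasi-likelihood test of edgeR 4.0.16 (TMM, no block), with Benjamini-Hochberg adjustment over all 2837. The same code was tested on simulated data. The main fit recovered 7 of 95 changes of log2 size 3 and 92 of 101 of log2 size 6, with 0 false calls. DESeq2 recovered 38 of 95 and 97 of 101, with 11 false calls. Most changes of log2 size 3 were thus missed by the main fit, and a transcript not called may still have changed. CPM are counts over the library total without TMM. Gene names came from RefSeq, and 0 columns were left out.

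Fold bounds set a library at 0 to 3 counts. Count ratios and control shares have exact 95% intervals (Clopper-Pearson for shares above 0, and the level of 3 counts as the limit for a share of 0), which cover counting error only. The function lists, isozyme pairs and naming rule were chosen with earlier results of these data known. The rule named the 15 largest called increases and decreases, up to 4 most counted called members per list (the most counted member where none was called), the 5 most counted transcripts in no list at each temperature, and isozyme pairs with a call. A few transcripts that the rule names are not reported here. TPS2, GDB1, GPH1, HSP30, TMA10, RGI1, STI1, CPR6, AHA1, SIS1, YDJ1, FES1, CUR1, YGP1, SCW10, GAS1, TOS2, MBF1, PIN3, SIP4, STE2 and BAR1 were added after their values were seen, as were EXG1, MSB2 and PRY2. The libraries of a number came from the same clone, so the clone number pairs them. The clones' deviations from the temperature means had Pearson r = -0.02 over 2837 transcripts and -0.04 over the 660 that averaged 50 or more counts, and the fit with the clone as a block was run beside the one without it. The p-values rest on the spread between these 4 libraries, with each transcript's variance drawn toward a trend over all tested transcripts. A motif search was not run. The other alternatives were DESeq2's size factors, total counts, count minimums of 1 and 50, DESeq2 1.42.0, leaving out each library, and for shares a density scale, leaving out each list's most counted transcript and leaving out overlapping intervals.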

Additional observations from a re-analysis of the deposited data

How the results depend on the processing

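The 108 increases became 174 with a mean count minimum of 1 and the 98 decreases became 165 with DESeq2. With the clone as a replicate block, 150 increases and 144 decreases were called, among them all 108 and all 98. Leaving out 1 library gave 75 to 193 increases and 33 to 121 decreases. Without 30°C clone 4 there were 75 increases and 33 decreases, of which 60 and 32 were among the 108 and the 98. Without 30°C clone 3 there were 193 and 121. Of the 111 named and called transcripts, 46 kept the call in every alternative that tested them, 65 lost it in at least 1 of the 10, and none changed direction while called. The 18 lists with a smaller share at 42°C became 9 when only transcripts averaging 50 or more counts were summed, and the nuclear pore and transport list then took a larger share. On the density scale 15 of the 19 lists with a larger share and 16 of the 18 with a smaller share kept that order, and the protein kinase A and nutrient signalling list took a smaller share in place of a larger one. The causes were not tested. The median log2 fold change of all tested transcripts was 0.13, and it lay between -0.03 without 42°C clone 4 and 0.32 without 30°C clone 3. Depth limits the low end: a transcript at 0 in the shallowest Ssd1-HTP library is bounded only by 3 counts of 111824, and the control of 3921 counts cannot show a background below 765 CPM.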
